A study of Mus musculus with 15 samples.

Results

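Wild-type TER119-positive cells of mouse fetal liver were described from 4 arrays, the wild-type replicates 1 to 4, of 15 arrays in the study. The members are the 4 arrays labelled wild type, and the genes were ordered by their mean log2 signal over these arrays and by the standard deviation (SD) between them. Each array held RNA of cells from FVB/NJ embryos at day E13.5 of gestation, taken out of the liver with magnetic beads against TER119, a surface antigen of maturing red cells. The wild-type embryos carried no altered allele. The other arrays came from the same strain, stage and cell preparation. Of these, 4 came from embryos with a gene trap in Klf8 (given as Klf8gt/gt), and 3 from Klf3-/- embryos. A further 4 came from embryos with both alterations (given as Klf3-/- Klf8gt/gt). Klf3 and Klf8 encode zinc finger repressors of the Kruppel-like factor family. The labels do not say whether each array is a separate embryo or which arrays share a litter, so the spread between arrays may be partly technical.

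The fetal liver is the main site of red cell production at this stage. Erythropoietin acts through its receptor, JAK2 and STAT5 to keep erythroid precursors alive, while GATA1, TAL1, LMO2, LDB1 and KLF1 drive the genes for globin, haem and the red cell membrane. Precursors divide a few more times, take up iron through the transferrin receptor, clear their organelles and leave the liver as reticulocytes. They mature on the surface of macrophages, among hepatoblasts and the endothelium of the liver sinusoids. An earlier wave of primitive red cells, made in the yolk sac, still circulates in the embryo and carries embryonic globins.

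The promoters of 6 genes whose signals are described in the following paragraphs are printed from RefSeq, build GRCm38.p6, each as 300 bases from 250 before to 50 after the first listed start of the gene. Alas2 and Klf1 stand for the erythroid programme, Hbb-y and Hba-x for embryonic globins, and Stab2 and Kdr for endothelial genes whose signals differed between the arrays. Capitals mark AGATAA or its variant TGATAA, the core bound by GATA factors, and CACCC, the core bound by Kruppel-like factors, each searched on either strand. Where copies overlap, their capitals run together.
Alas2, chrX:150547167-150547466, plus strand: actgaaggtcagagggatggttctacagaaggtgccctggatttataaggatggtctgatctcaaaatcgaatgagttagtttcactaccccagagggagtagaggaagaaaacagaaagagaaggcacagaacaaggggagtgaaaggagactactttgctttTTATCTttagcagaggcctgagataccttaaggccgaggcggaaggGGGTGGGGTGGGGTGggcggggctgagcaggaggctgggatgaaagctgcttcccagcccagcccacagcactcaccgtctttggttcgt
Klf1, chr8:84901732-84902031, plus strand: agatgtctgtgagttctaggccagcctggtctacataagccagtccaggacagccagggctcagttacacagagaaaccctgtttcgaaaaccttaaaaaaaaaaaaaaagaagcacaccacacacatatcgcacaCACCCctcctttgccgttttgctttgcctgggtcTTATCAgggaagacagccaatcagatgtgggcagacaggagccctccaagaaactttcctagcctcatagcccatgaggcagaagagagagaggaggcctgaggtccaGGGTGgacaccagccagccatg
Hbb-y, chr7:103853158-103853457, minus strand: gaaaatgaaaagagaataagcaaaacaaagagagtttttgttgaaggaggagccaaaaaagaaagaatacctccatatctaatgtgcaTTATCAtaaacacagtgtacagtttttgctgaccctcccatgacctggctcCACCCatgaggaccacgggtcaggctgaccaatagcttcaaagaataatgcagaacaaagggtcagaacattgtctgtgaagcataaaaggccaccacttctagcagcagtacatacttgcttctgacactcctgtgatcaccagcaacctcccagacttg
Hba-x, chr11:32276350-32276649, plus strand: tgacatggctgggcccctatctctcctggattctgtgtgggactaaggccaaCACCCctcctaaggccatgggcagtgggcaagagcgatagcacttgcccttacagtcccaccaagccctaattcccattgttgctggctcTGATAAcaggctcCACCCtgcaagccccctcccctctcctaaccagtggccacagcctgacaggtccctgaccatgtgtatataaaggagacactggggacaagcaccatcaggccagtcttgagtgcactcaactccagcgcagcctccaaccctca
Stab2, chr10:87007893-87008192, minus strand: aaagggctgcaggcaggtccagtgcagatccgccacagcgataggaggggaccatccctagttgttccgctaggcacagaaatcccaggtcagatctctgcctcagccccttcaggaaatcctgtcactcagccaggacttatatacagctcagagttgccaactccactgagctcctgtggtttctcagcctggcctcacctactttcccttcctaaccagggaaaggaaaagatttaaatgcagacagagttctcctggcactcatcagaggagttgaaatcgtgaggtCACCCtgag
Kdr, chr5:75978406-75978705, minus strand: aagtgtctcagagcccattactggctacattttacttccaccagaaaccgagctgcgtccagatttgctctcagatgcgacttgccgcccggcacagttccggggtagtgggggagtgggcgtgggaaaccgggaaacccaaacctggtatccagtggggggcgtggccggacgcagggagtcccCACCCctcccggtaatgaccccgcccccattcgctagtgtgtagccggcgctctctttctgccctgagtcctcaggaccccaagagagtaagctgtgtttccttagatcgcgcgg

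The 4 erythroid promoters each held 1 GATA core, and between 1 and 3 copies of CACCC. The Stab2 and Kdr windows held 1 CACCC and no GATA core. Of the 75 measured genes for embryonic globins, haem synthesis, iron, the membrane and late maturation, 58 had a promoter in the table. A GATA core lay in 15 of these (25.9%), against 19% of all 27025 promoters and 10.3% of the 10203 promoters of genes above the signal reference defined in the next paragraph. CACCC lay in 46 of the 58 (79.3%), against 56.7% and 63.5%. Both motifs together lay in 13 (22.4%), against 8.98% and 5.98%. The 18 hepatocyte promoters found gave like shares, 5 with a GATA core (27.8%), 13 with CACCC (72.2%) and 4 with both (22.2%). For 14 endothelial genes, of which 8 had a promoter, the counts were 2 with a GATA core and 6 with CACCC. In the 24 promoters found for cell cycle genes, the counts were 1 and 14. These shares describe letters in a window and say nothing about binding.

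The table held 35556 rows, of which 21789 had 1 gene symbol and stood for 19938 genes. Each gene was represented by its row of highest wild-type mean. The medians of the wild-type arrays lay between 6.29 and 6.33, single values ran from 2.14 to 14.86, and the Pearson correlation between wild-type arrays over rows was 0.994 to 0.996. Because the values carry no detection call, 1231 genes for olfactory, vomeronasal and taste receptors served as a reference. Their 95th percentile was 5.62 to 5.77 in the 4 arrays, and a gene whose signal exceeded it in 4 of 4 arrays is called above the reference. That held for 12782 genes (64.1%), including 45 of the receptor genes (3.66%), while 5919 genes were at or below it in 4 of 4 arrays. Signal depends on a row's probes as well as on the amount of RNA, so an order of signals is not an order of transcript numbers, and no fold between genes is given. The wild-type arrays had 8.54 to 8.69 as the mean of 4 Y-linked genes and 4.70 to 5.06 for Xist, so these were 4 male samples. Klf3 signal was 10.12 to 10.51 in wild-type arrays and 11.16 to 11.40 in arrays labelled Klf3-null, so it did not fall there. Klf8 signal was 5.13 to 5.55 in wild-type and 5.27 to 5.48 in Klf8-trap arrays, at or below the reference in wild type. The labels do not say whether these probes lie outside the altered part of either gene.

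The brightest rows held housekeeping, histone, translation, globin and other red cell genes. Among the 100 brightest rows, 77 carried several gene symbols and name no gene by themselves. They included 19 rows shared by Gapdh and its pseudogenes, 19 of histone genes, 17 of Rps2 with a predicted gene and 4 of adult globin genes. The 4 adult globin rows had means of 14.76 and 14.75 (alpha) and 14.67 and 14.66 (beta), with SDs of 0.01 to 0.03 over 4 arrays. They lay near the highest value of the table, 14.86, where differences may be compressed.

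Among genes with a row of their own, Baiap2l1, which encodes a membrane-curving adaptor protein, was first with 14.68, 14.69, 14.67 and 14.67 in replicates 1 to 4. That gene had 3 rows, and the next was at 12.27, so its probes disagree. Eef1a1 (14.36 ± 0.04, SD, n = 4), the elongation factor that brings tRNA to the ribosome, Pabpc1 (14.25 ± 0.04), which binds poly(A) tails, and Actb (14.10 ± 0.01), cytoplasmic actin, followed. Translation stood out by number. Of 62 measured genes for cytosolic ribosomal proteins, 59 were above the reference and 26 were among the 100 brightest genes, with Rplp0 at 13.86 ± 0.02, Rps2 at 13.77 ± 0.02 and Rps6 at 13.60 ± 0.02.

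Red cell genes made up much of the rest of the 30 brightest. Fth1, the ferritin heavy chain, had 14.08, 14.09, 14.12 and 14.03. Gpx1, a glutathione peroxidase, had 13.96, 13.93, 14.03 and 13.88, and Slc4a1, the band 3 anion exchanger, had 13.79, 13.88, 13.88 and 13.77. None of these arrays lay apart from the other three. Car2 (13.80 ± 0.08), a carbonic anhydrase, Slc2a1 (13.74 ± 0.09), the glucose transporter, Prdx2 (13.73 ± 0.06), a peroxiredoxin of red cells, Tfrc (13.65 ± 0.09), the transferrin receptor, and Alas2 (13.64 ± 0.09) and Alad (13.62 ± 0.06), the enzymes of the opening steps of haem synthesis, were close behind. Xpo7 (13.43 ± 0.12), a nuclear export receptor needed for the nuclear condensation of erythroblasts, was the last but 1 of the 30.

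Liver genes were among the same 30. Alb, serum albumin, had 13.96, 13.89, 14.04 and 14.07, and Afp, alpha-fetoprotein, had 13.95, 13.93, 14.03 and 14.05. Serpina6, the plasma carrier of corticosteroids, had 13.37, 13.33, 13.53 and 13.62. In each of the 3 genes replicate 2 was lowest and replicate 4 highest, although the steps between arrays were small.

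The set of brightest genes was stable. Leaving out any 1 wild-type array kept 98 to 100 of the 100 brightest genes. The same number taken in the mutant groups shared 87 genes (Klf8 trap), 90 (Klf3-null) and 83 (double mutant) with wild type. The median SD of the 100 brightest genes was 0.06, against 0.12 over the 12782 genes above the reference.

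Of 176 measured genes in 11 erythroid lists, 174 (98.9%) were above the reference, and 30 were among the 100 brightest genes. The plot of erythroid lists shows the mean and range of each gene.

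**Figure D1:**
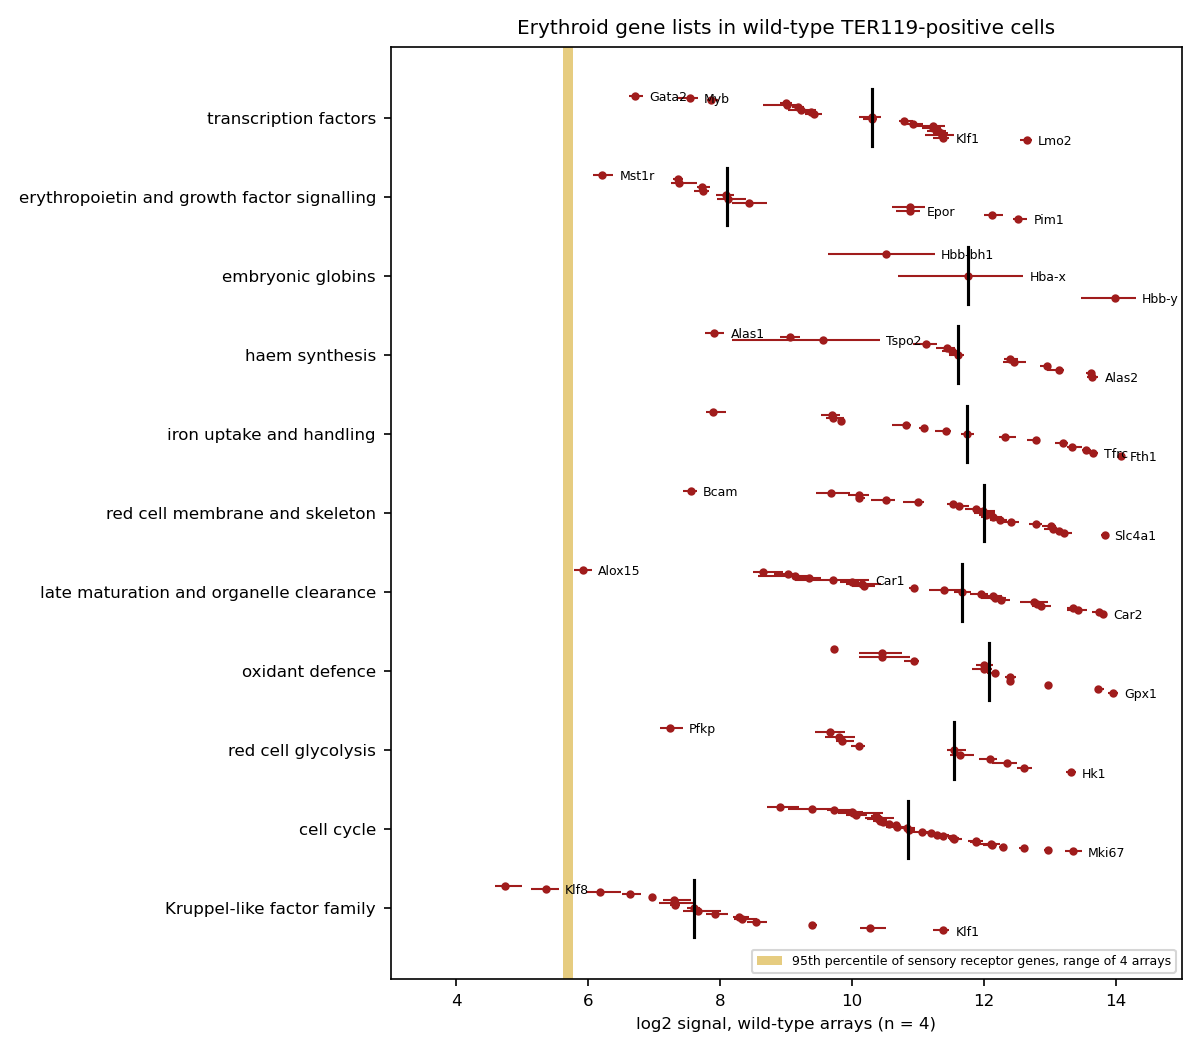
Log2 signal of the genes of 11 erythroid lists in the 4 wild-type arrays. Points are means, horizontal lines run from the lowest to the highest array, black bars are list medians and the yellow band is the reference of 5.62 to 5.77. Red cell structure, haem and iron lists have medians of 11.60 to 12.00, while Klf8 and Klf17 are the genes left of the band.

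Erythroid transcription factors were present throughout. The list of 20 had a median of 10.30, and 20 of 20 were above the reference. Lmo2, the bridging subunit of the GATA1 complex, was brightest with 12.63, 12.71, 12.72 and 12.54. Klf1, the erythroid activator that binds CACCC boxes, had 11.47, 11.39, 11.41 and 11.22, and Gata1 had 11.46, 11.54, 11.33 and 11.10. Replicate 4 was lowest for these 3 genes and for 15 of the 20. Factors of earlier stages gave the weakest signals. Gata2, which GATA1 replaces during maturation, had 6.70, 6.68, 6.61 and 6.83, Myb, which sustains progenitor growth, had 7.54 ± 0.13, and Runx1 had 7.86 ± 0.07. Replicate 4 was the highest array for both Gata2 and Myb. Bcl11a (8.99 ± 0.08) and Sox6 (10.92 ± 0.13), repressors of embryonic globin genes, were both above the reference.

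In erythropoietin and growth factor signalling, the 12 measured genes had a median of 8.10. Epor, the erythropoietin receptor, had 11.03, 10.99, 10.83 and 10.66, and its kinase Jak2 had 10.88, 10.90, 11.10 and 10.61. Pim1 (12.51 ± 0.10), a survival kinase induced by STAT5, and Bcl2l1 (12.12 ± 0.14), which encodes the anti-apoptotic BCL-XL, were above the reference in each array. So were the transducers Stat5a (7.73 ± 0.09) and Stat5b (8.11 ± 0.20). Kit, the stem cell factor receptor that is lost as erythroblasts mature, had 7.31, 7.26, 7.26 and 7.65. Erfe, the erythroid hormone that lowers hepcidin, had 7.36 ± 0.08.

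Embryonic globins were present and uneven. Hbb-y, the embryonic beta-like chain, had 13.47, 14.02, 14.14 and 14.30. Hba-x, the zeta chain of primitive red cells, had 10.70, 11.71, 12.00 and 12.59, and Hbb-bh1, the other embryonic beta-like chain, had 9.64, 10.61, 10.54 and 11.25. Each of the 3 genes was lowest in replicate 1 and highest in replicate 4, a range of 0.83, 1.89 and 1.61 on the log2 scale. Over all genes above the reference, replicate 1 was lowest for 20.1% and replicate 4 highest for 34.6%. The list means were 11.27, 12.11, 12.23 and 12.71 in replicates 1 to 4. The first was the lowest of all 15 arrays, and the double mutant arrays had 12.51 to 13.40, so both groups overlapped. Of 8 genes listed as markers of primitive erythroid cells, these 3 globins alone were both lowest in replicate 1 and highest in replicate 4. None of the 5 further genes had that order. Aqp3, a water and glycerol channel, ran the other way with 9.44, 9.04, 8.87 and 8.32, and Gpr161 (5.55 ± 0.07) was at or below the reference. In RNA of mixed cells, more cells of a type cannot be told apart from more RNA per cell.

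Haem synthesis and iron handling gave high signals, with median SDs of 0.12 and 0.09. For haem synthesis, 13 of 13 measured genes were above the reference with a median of 11.60. Besides Alas2 and Alad, Urod (13.13 ± 0.12), Cpox (12.95 ± 0.07) and Fech (12.46 ± 0.16), which act at later steps of the pathway, were among them. Alas1, the form of the enzyme used outside red cells, had 7.84, 7.77, 7.96 and 8.06. Tspo2, an erythroid membrane protein related to the mitochondrial translocator protein, varied most in the haem list with 9.73, 10.42, 9.87 and 8.17. Replicate 4 lay below the other 3 arrays. It was the lowest array for 9 of the 13 haem genes, with list means of 11.57, 11.68, 11.65 and 11.36, to which Tspo2 contributes. Of 15 iron genes, 15 were above the reference, with a median of 11.74. Ftl1 (13.55 ± 0.05), the ferritin light chain, Ncoa4 (13.33 ± 0.11), which delivers ferritin for breakdown, Slc25a37 (13.20 ± 0.09), the mitochondrial iron importer, and Slc40a1 (12.32 ± 0.11), the iron exporter ferroportin, were bright, and the haem exporter gene Flvcr1 (7.89 ± 0.14) was weakest. The highest SD in this list was 0.14.

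All 21 measured membrane and skeleton genes were above the reference, and 19 were among the brightest 10% of genes. After Slc4a1 came Epb42 (13.21 ± 0.10), protein 4.2, Ermap (13.14 ± 0.07), Rhag (13.04 ± 0.09) and Rhd (13.01 ± 0.09) of the Rh complex, Kel (12.79 ± 0.09), Sptb (12.40 ± 0.11), beta spectrin, and Ank1 (12.00 ± 0.14), ankyrin. Bcam, an adhesion molecule for laminin, was the weakest at 7.56 ± 0.09. Replicate 3 was the highest array for 13 of the 21 and replicate 4 the lowest for 15.

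Genes of late maturation and organelle clearance followed the same order of arrays. Bnip3l, which removes mitochondria, had 13.30, 13.39, 13.46 and 13.25. Trim10 (12.86 ± 0.12), Hemgn (12.80 ± 0.07), Bpgm (12.76 ± 0.17), which makes 2,3-bisphosphoglycerate, and Ube2o (12.26 ± 0.14), which marks ribosomes for destruction, were all among the bright members. Alox15, a lipoxygenase of reticulocytes, was weakest with 5.78, 6.02, 6.05 and 5.82. Slc2a4, a glucose transporter, had 9.23, 9.37, 9.35 and 8.57. Replicate 3 was highest for 17 of the 23 genes and replicate 4 lowest for 17, with list means of 11.17, 11.24, 11.30 and 11.05. Car1, the carbonic anhydrase of adult red cells, departed from this order with 10.25, 9.37, 9.13 and 10.11, high in replicates 1 and 4.

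Oxidant defence and glycolysis genes were likewise above the reference, 12 of 12 and 11 of 11. Cat, catalase, had 12.39 ± 0.07, Sod1 had 12.39 ± 0.04 and Txn1, thioredoxin, had 12.97 ± 0.02. Gsr, glutathione reductase, varied most in the oxidant list, with 10.37, 10.88, 10.43 and 10.11. In glycolysis, Hk1 (13.32 ± 0.08), the red cell hexokinase, Ldha (12.61 ± 0.12) and Pklr (12.34 ± 0.17), the red cell and liver pyruvate kinase, were bright, whereas Pfkp, the platelet form of phosphofructokinase, had 7.43, 7.09, 7.24 and 7.20. Replicate 1 was the highest array for 8 of the 11 glycolysis genes.

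Division genes were strongly represented. All 30 measured cell cycle genes were above the reference and 27 were among the brightest 10%. Mki67, a marker of dividing cells, had 13.23, 13.37, 13.48 and 13.32, and Pcna, the replication clamp, had 13.03, 12.95, 12.99 and 12.91. Cdk6 (8.90 ± 0.21) was the weakest, and Cdkn2c, an inhibitor of CDK4 and CDK6, had 9.39, 9.41, 9.73 and 9.02. Replicate 4 was lowest for 19 of the 30, but Cdk6, Ccnd1 and Ccnd2 were highest there, with 9.19, 10.47 and 9.98.

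In the Kruppel-like factor family, 15 of 17 genes were above the reference. Klf1 led, followed by Klf3 (10.12, 10.20, 10.27 and 10.51) and Klf16 (9.39 ± 0.05). The signals of Klf2 (7.30 ± 0.18), Klf4 (6.17 ± 0.22) and Klf5 (6.97 ± 0.03) were above the reference in each array. Klf8 (5.13, 5.55, 5.34 and 5.43) and Klf17 (4.99, 4.67, 4.58 and 4.74) were at or below it in 4 of 4 arrays. Klf3 was highest in replicate 4 and Klf1 lowest there.

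Genes listed as markers of lineages distant from blood and liver were mostly weak, although a listed gene may also be active in liver cells. Of 134 measured genes in 12 such lists, 56 (41.8%) were above the reference, against 64.1% of all genes. Above the 99th percentile of the receptor genes, 6.39 to 6.48, were 24 of the 134, against 10259 of all 19938 genes. The reference is therefore a low bar. Retina and lens genes were above it in 0 of 9 cases, with Crygd, a lens crystallin, at 3.67, 3.56, 3.63 and 3.47. Germ cell genes were above it in 2 of 12 (Prm1, 6.37 ± 0.04, and Prm2, 6.23 ± 0.21, the protamines), with Sycp3, of the meiotic chromosome axis, at 3.60 ± 0.10. Skin genes were above it in 2 of 10 and bone and cartilage genes in 2 of 9.

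The neuron list gave 6 of 17 above the reference, and 10 at or below it in 4 of 4 arrays. Neurod1, a neurogenic factor, had 3.81 ± 0.17, and Nefm, a neurofilament, 4.30 ± 0.09. Gap43, a growth cone protein, was the exception with 7.70, 7.96, 8.53 and 9.04. It was lowest in replicate 1 and highest in replicate 4. Glia (5 of 9), kidney (6 of 9), pancreas (4 of 9), lung and intestine (7 of 12), skeletal muscle (9 of 15) and heart (9 of 13) had more members above the reference, most of them weak. Their brightest were Mbp (7.44 ± 0.04), Aqp2 (6.82 ± 0.08), Cela1 (7.08 ± 0.11), Cdx1 (7.79 ± 0.08), Mylpf (7.79 ± 0.22) and Gata4 (8.16 ± 0.19). The counts for glia, kidney, lung and intestine, skeletal muscle and heart were near the share of all genes, 64.1%, so they do not set those lists apart. Among pluripotency genes, Pou5f1 had 4.83 ± 0.15 and Sox2 5.07 ± 0.10, whereas Lin28a, an RNA-binding protein of fetal liver and stem cells, had 7.0, 6.94, 7.01 and 7.12.

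**Figure D2:**
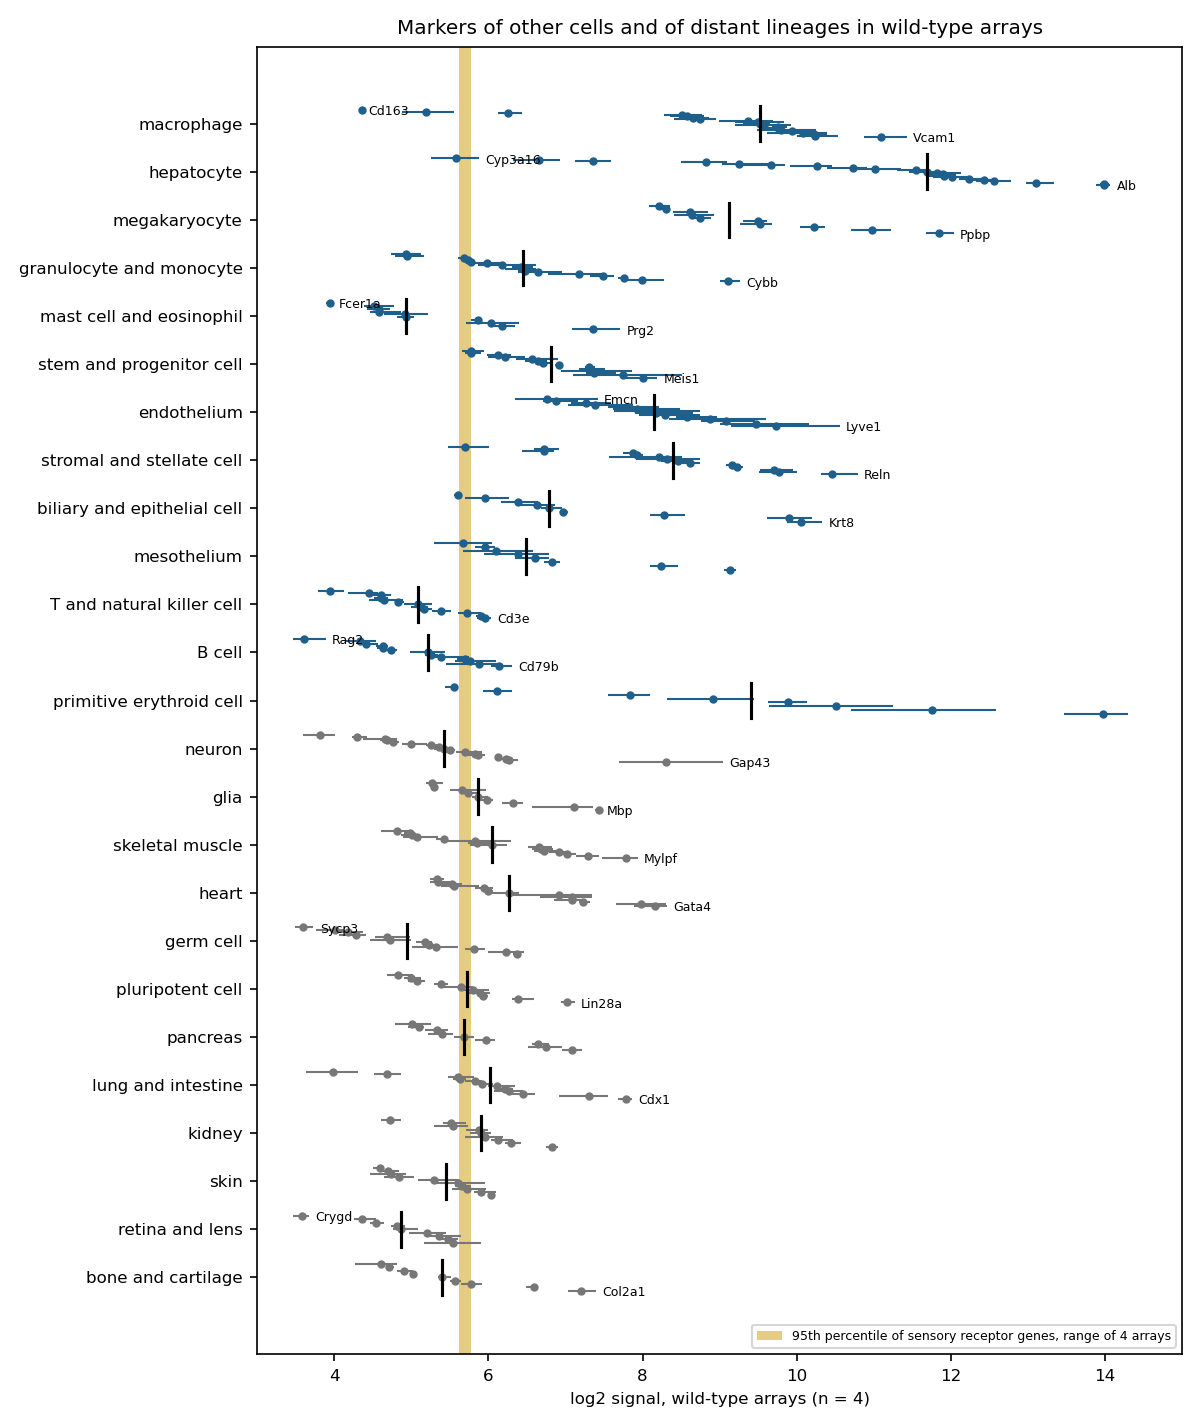
Log2 signal of marker genes of other cells that the liver or the bead preparation could hold (blue) and of distant lineages (grey) in the 4 wild-type arrays, drawn as in the plot of erythroid lists. Hepatocyte, macrophage, megakaryocyte and endothelium markers lie mostly right of the yellow reference band, and lymphoid, mast cell and distant lineage markers lie around it or left of it.

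Lymphoid genes and most mast cell genes were near the reference or below it. B cell genes were above the reference in 1 of 13 cases, with Rag2, of the recombinase, at 3.89, 3.51, 3.56 and 3.47 and Pax5 at 5.22 ± 0.20, and T and natural killer genes in 2 of 13, with Cd3e at 5.96 ± 0.08 and Klrb1c at 3.95 ± 0.13. Mast cell and eosinophil genes were above it in 3 of 10. Fcer1a, the IgE receptor chain, had 3.94 ± 0.04 and Cpa3 4.92 ± 0.24, whereas Prg2, an eosinophil granule protein, had 7.08, 7.71, 7.41 and 7.25, highest in replicate 2. Epx (5.71, 6.40, 5.78 and 6.27), eosinophil peroxidase, and Mpo (6.77, 7.52, 6.95 and 7.45), myeloperoxidase, were also highest there. Of 16 granulocyte and monocyte genes, 12 were above the reference, against 64.1% of all genes. They were led by Cybb (9.11 ± 0.12), of the phagocyte oxidase, and Spi1 (7.99 ± 0.23). Above the stricter percentile of the receptor genes, 6.39 to 6.48, were 6 of the 16, against 10259 of all 19938 genes. The granulocyte and monocyte counts therefore do not exceed this background clearly. Elane, neutrophil elastase, had 5.73 ± 0.04, inside the range of the reference.

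Macrophage genes were clearly present, 17 of 19 above the reference with a median of 9.53. Vcam1, the adhesion molecule of island macrophages, had 10.88, 10.99, 11.43 and 11.06, and Marco, a scavenger receptor, had 10.22, 10.01, 10.54 and 10.21. Adgre1, which encodes F4/80, had 9.43, 9.53, 9.83 and 9.20. Replicate 3 was the highest array for 14 of the 19 and replicate 4 the lowest for 11. The list means were 8.91, 8.82, 9.10 and 8.79, and 9.10 was the highest of all 15 arrays. Cd163, a haemoglobin scavenger receptor, was at 4.36 in each of the 4 arrays and Vsig4, a complement receptor, at 4.88, 5.14, 5.21 and 5.55.

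Hepatocyte genes were the brightest of the other cell types, 20 of 21 above the reference with a median of 11.69. After Alb and Afp came Trf, transferrin (13.01, 12.98, 13.07 and 13.34), Apoa2 (12.58, 12.33, 12.56 and 12.78) and Rbp4 (12.43, 12.24, 12.45 and 12.61). The regulator Hnf4a had 9.05, 9.03, 9.23 and 9.68. Replicate 4 was highest for 18 of the 21 genes and replicate 2 lowest for 19. The list means were 10.86, 10.66, 10.94 and 11.07, against 11.04 to 11.77 in the Klf8-trap arrays. Cyp3a16, a fetal cytochrome P450, was the weakest with 5.88, 5.25, 5.74 and 5.46. Krt8 (10.06 ± 0.21) and Krt18 (9.90 ± 0.24), the keratins of simple epithelia and hepatocytes, led the biliary and epithelial list, in which Sox9 (6.97 ± 0.05), Krt19 (6.39 ± 0.24) and Epcam (5.96 ± 0.27) were weak.

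Megakaryocyte genes were above the reference in 10 of 10 cases. Ppbp and Pf4, chemokines of platelet granules, had 11.92, 11.77, 11.68 and 12.04 and 10.37, 10.18, 10.04 and 10.34. Itga2b, the integrin subunit CD41, had 9.53, 9.61, 9.30 and 9.57. Replicate 3 was the lowest array for 8 of the 10. Their list means were 9.52, 9.52, 9.28 and 9.53, against 8.90 to 10.67 in the Klf8-trap arrays. Stem and progenitor markers were above the reference in 12 of 14 cases at low signals, such as Meis1 (8.01 ± 0.17), Hlf (7.32 ± 0.14) and Procr (6.12 ± 0.13), while Flt3 (5.77 ± 0.13) and Hoxa9 (5.77 ± 0.10) exceeded it in part of the arrays.

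Stromal markers and most mesothelial markers were above the reference, with median SDs of 0.18 and 0.17. Of 14 stromal genes, 13 were above the reference, with Reln, a marker of hepatic stellate cells, at 10.35, 10.32, 10.38 and 10.79, Dcn, decorin, at 9.77 ± 0.21 and the collagen genes Col1a1 (9.70 ± 0.20) and Col3a1 (9.23 ± 0.05). Postn, periostin, had 7.56, 8.42, 8.51 and 8.36, low in replicate 1. Mesothelium gave 6 of 8, of which 3 were above the stricter 99th percentile, with Wt1 at 6.83 ± 0.09. Of all genes 64.1% were above the reference and 10259 of 19938 above the stricter one, so the mesothelial counts do not exceed this background clearly.

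Endothelial genes differed between the wild-type arrays more than the other lists of other cells, with an SD of 0.38 for the list mean. Lyve1, a hyaluronan receptor of the liver sinusoid, had 9.36, 9.15, 9.87 and 10.56. Stab2, a scavenger receptor of the same vessels, had 9.0, 9.14, 9.58 and 10.16, and Kdr, the receptor VEGFR2, had 8.55, 8.34, 9.01 and 9.60. Each of the 3 was highest in replicate 4, next in replicate 3, and lower in replicates 1 and 2. Pecam1 (8.01, 7.96, 8.43 and 8.75), Tek (7.79, 7.63, 8.30 and 8.74) and Cdh5 (8.76, 8.78, 9.31 and 9.46) showed the same order of the upper arrays. All 14 endothelial genes were above the reference and 14 of 14 were highest in replicate 4, against 34.6% of all genes above the reference. The list means were 7.89, 7.86, 8.22 and 8.69, and 8.69 was the highest of all 15 arrays. The other genotypes had 7.65 to 8.40 (Klf8 trap), 7.95 to 8.15 (Klf3-null) and 7.77 to 8.35 (double mutant), so replicate 4 lay above every mutant array and replicates 1 and 2 lay within their range.

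**Figure D3:**
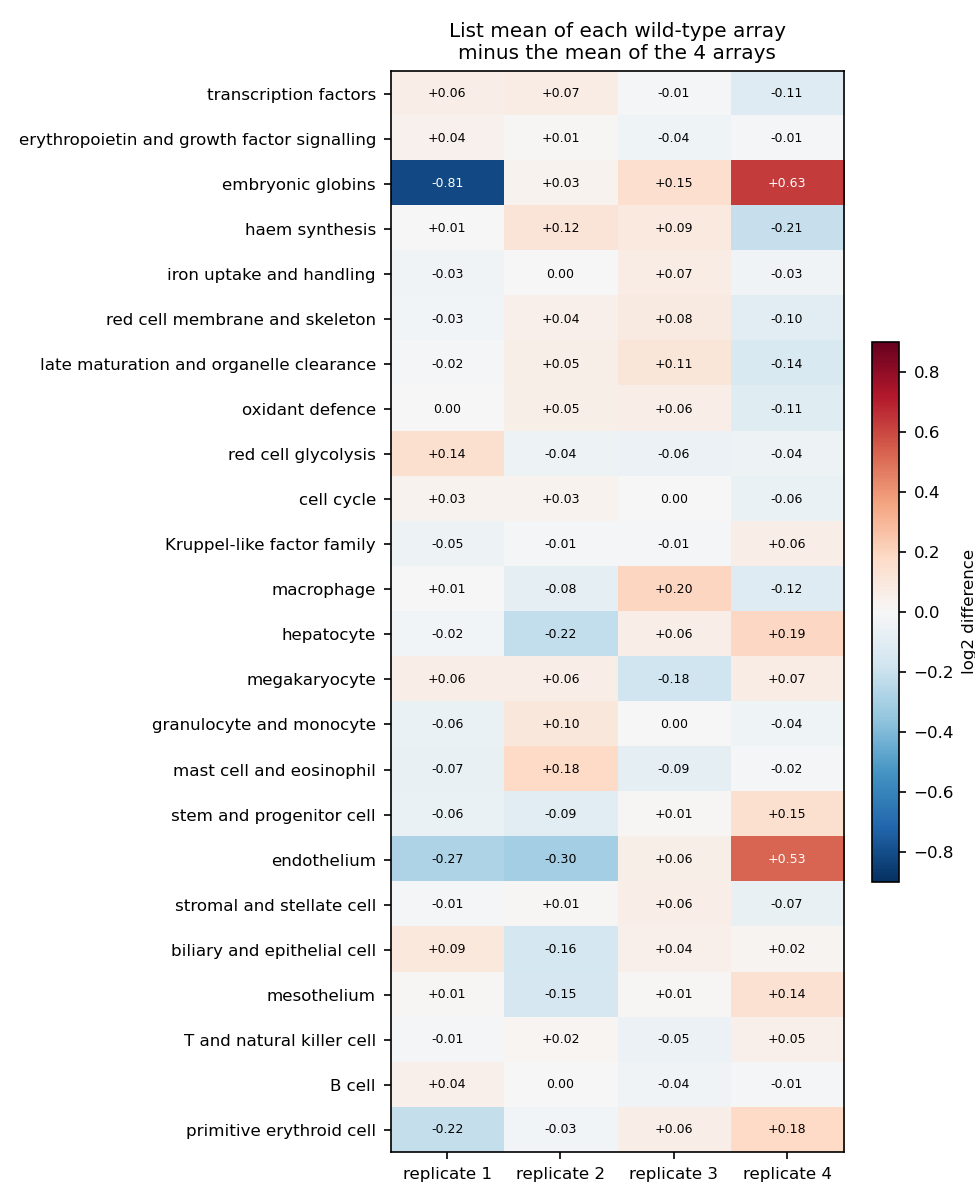
Mean of each list in each wild-type array minus the mean of the 4 arrays, on the log2 scale, for erythroid lists and lists of other cells. Replicate 4 is high for endothelium, embryonic globins and hepatocytes and low for haem synthesis, membrane and late maturation, and replicate 1 is low for embryonic globins.

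The arrays thus differed in an ordered way across lists. In replicate 4, endothelial, hepatocyte and embryonic globin signals were the highest of the 4 arrays, while 15 of 20 erythroid transcription factors, 15 of 21 membrane genes and 17 of 23 late maturation genes were at their lowest, against 28.6% of all genes above the reference. In replicate 3, macrophage genes (14 of 19), membrane genes (13 of 21) and late maturation genes (17 of 23) were at their highest, against 21.4% of all genes. The sizes were unequal. Between replicates 4 and 1 the endothelial list means were 8.69 and 7.89, and the late maturation means were 11.05 and 11.17. Whether the content of other cells had a part in the erythroid differences was not tested.

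**Figure D4:**
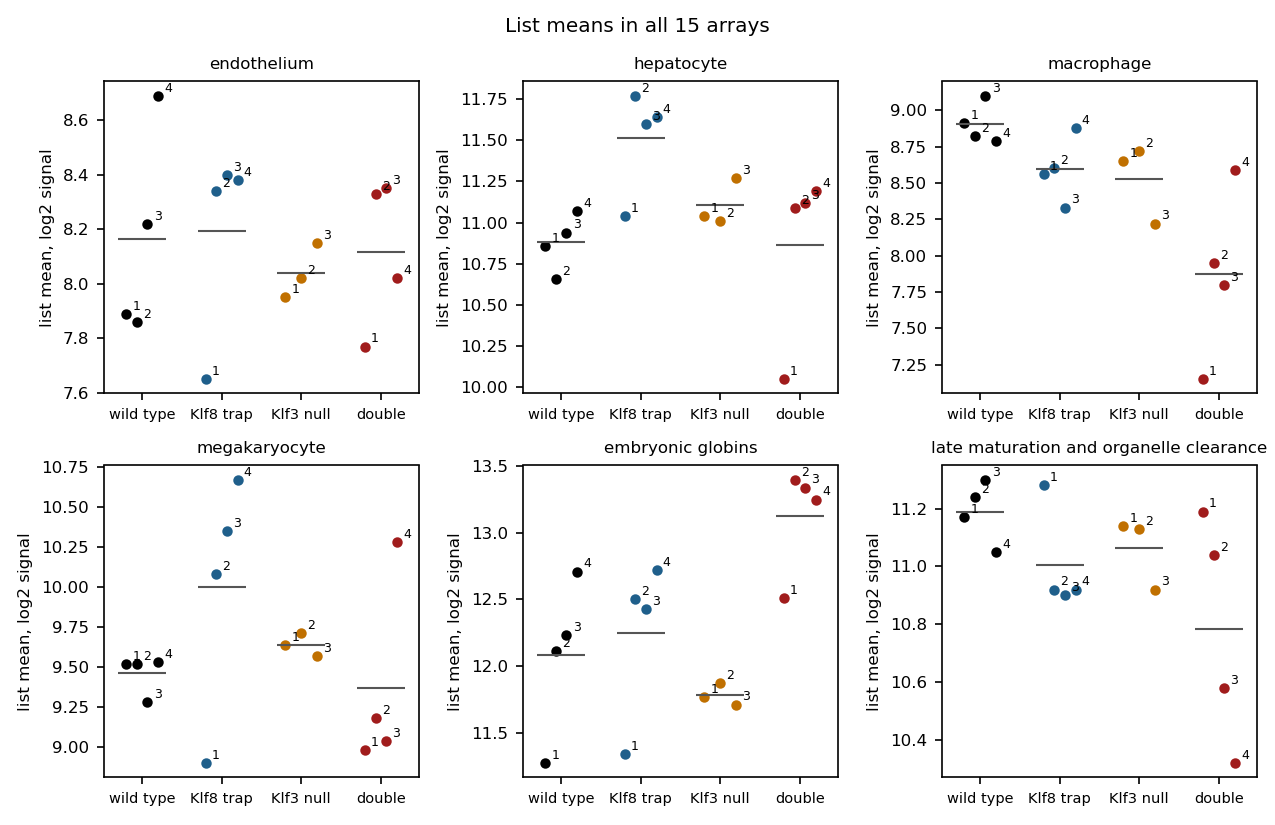
List means on the log2 scale in all 15 arrays by genotype for 6 lists. Points are arrays with their replicate number, and grey lines are group means. The endothelial mean of wild-type replicate 4 (8.69) lies above the other 14 arrays, and the embryonic globin mean of wild-type replicate 1 (11.27) lies below them.

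Most genes varied little. Over the 12782 genes above the reference, the median SD between wild-type arrays was 0.12 and the 95th percentile was 0.26. In 5 equal bins from low to high signal the median SD was 0.12, 0.13, 0.13, 0.11 and 0.10. An SD over 0.5 was found for 37 genes (0.289%), of which the 30 largest with a proper gene name were examined. Replicate 4 was the array farthest from the median for 25 of the 37 (67.6%), against 38.4% of all genes above the reference. Without replicate 4 the number fell to 19, and without replicate 1, 2 or 3 it was 45, 53 and 55.

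**Figure D5:**
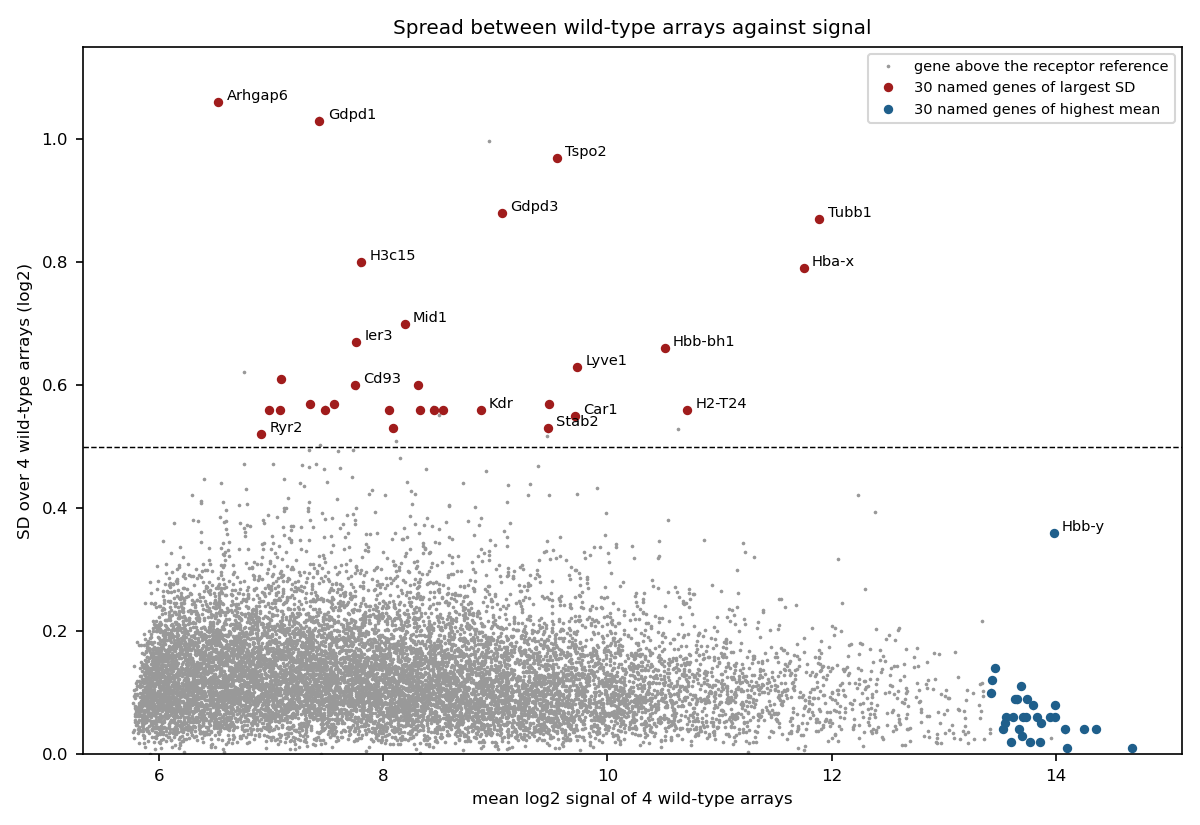
SD over the 4 wild-type arrays against mean log2 signal for the 12782 genes above the receptor reference. Red points are the 30 named genes of largest SD, blue points the 30 of highest mean, and the dashed line is an SD of 0.5. Arhgap6 has the largest SD at a low mean, and Tubb1, Hba-x and Tspo2 vary at high or middle signals.

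A first set of these genes followed the endothelial order, with replicate 4 highest and replicate 3 second, which held for 16 of the 37 (43.2%), against 13.6% of all genes above the reference. Besides Lyve1, Kdr, Stab2 and Hba-x it included Oit3, a marker of sinusoidal endothelium (9.01, 9.04, 9.66 and 10.21), and Calcrl, the receptor for adrenomedullin (7.62, 7.58, 8.24 and 8.76). Gpr182, an endothelial chemokine-binding receptor, had 7.06, 7.07, 7.53 and 8.26, and Cd93, a glycoprotein of endothelium and early progenitors, had 7.10, 7.53, 7.88 and 8.51. Adgrf5 (8.09 ± 0.53), an adhesion receptor of endothelium, Cemip2 (8.45 ± 0.56), Gimap4 (8.53 ± 0.56), a GTPase, Rasgrp3 (7.56 ± 0.57), an activator of Ras, and Gap43 had the same order.

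A second set was set apart by 1 array. Arhgap6, a GTPase-activating protein, had the largest SD, 1.06, with 5.82, 8.11, 6.0 and 6.19. Only replicate 2 was high, and the SD within genotypes of the other 11 arrays was 0.22. Gdpd1, a phosphodiesterase of lysophospholipids, had 6.98, 6.78, 6.98 and 8.97, high in replicate 4, and here the SD within the other genotypes was as large, 1.16. Tubb1, the beta tubulin of megakaryocytes and platelets, had 12.32, 10.58, 12.40 and 12.25, low in replicate 2, where the mean of the megakaryocyte list was 9.52, as in replicate 1. H3c15, a histone gene, had 8.32, 8.22, 8.03 and 6.62, low in replicate 4, and Rtp4, an interferon-induced gene, had 7.30, 7.17, 6.14 and 7.30, low in replicate 3. Unc5cl (7.15, 6.23, 7.39 and 7.62) was low in replicate 2, with an SD of 0.15 in the other genotypes.

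The remaining genes split the arrays otherwise. Gdpd3, related to Gdpd1, had 8.24, 10.09, 8.43 and 9.49, and Mid1, a ubiquitin ligase gene of the X chromosome, had 7.81, 9.16, 7.56 and 8.23, both highest in replicate 2. Ier3, an immediate early gene, had 8.57, 7.65, 7.89 and 6.94. Crip1 (8.72, 8.83, 8.13 and 7.62), a LIM protein, and Ms4a4a (7.50, 7.58, 6.85 and 6.40), a membrane protein of macrophages, were lowest in replicate 4. H2-T24, a class I major histocompatibility gene, had 10.71 ± 0.56 and was lowest in replicate 4. Ryr2 (6.68, 7.34, 7.35 and 6.29), the calcium release channel of heart, and Lrrc39 (6.51, 7.60, 7.77 and 7.51) were weak signals.

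Genes that varied between wild-type arrays also tended to vary within the other genotypes, whose 11 arrays took no part in the choice. The median SD within those genotypes was 0.49 for the 37 genes and 0.18 for all genes above the reference. An SD over the 95th percentile of all these genes, 0.41, was found for 28 of the 37 (75.7%). Across the 12782 genes, the Spearman correlation between both SDs was 0.43. This is a description across genes, which are not independent replicates and share arrays and probes.

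Each mutant group was compared with the same 4 wild-type arrays in 1 limma fit over 23410 rows, and adjusted p-values are by Benjamini and Hochberg. The 3 comparisons share these controls and are not independent. Over these rows Klf8-trap replicate 1 had a mean correlation of 0.988 with its group, against 0.993 to 0.994 for the others. Double mutant replicate 1 had 0.986, against at least 0.987 for the others. Against the Klf8-trap arrays, limma called 0 rows (0%), with 3135 rows (13.4%) at an unadjusted p under 0.05, and 0 of 176 erythroid genes (7 unadjusted). Without Klf8-trap replicate 1 the row count was 1683 (7.19%) with 3 erythroid genes called, and without double mutant replicate 1 as well 2917 (12.5%) with 15, of which 6 were higher and 9 lower. Against the arrays labelled Klf3-null, 137 rows were called (0.585%), 122 higher (0.521%) and 15 lower (0.0641%) in the mutant, and of the erythroid genes 2, Klf3 and Klf8. Both had higher signal in the mutant, by 1.04 ± 0.13 (SE, limma adjusted p = 0.000637) and 3.35 ± 0.22 (adjusted p = 8.78e-07). With male arrays alone, which leaves 1 Klf3-null array that is assumed to vary like the other groups, Klf3 missed the threshold (limma adjusted p = 0.125). That row count was 61 and 65 without Klf3-null replicate 1 or 2, and 89 without wild-type replicate 2 or without wild-type replicate 3.

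Against the double mutant, 772 rows were called (3.30%), 356 higher (1.52%) and 416 lower (1.78%) in the mutant. Of the 176 erythroid genes 17 (9.66%) were called, 5 higher and 12 lower, with a median difference of -0.15 over the 176 and -0.02 over all rows. The 5 higher calls include 2 of the altered genes themselves, Klf3 and Klf8. Ypel4, a gene of late erythroid cells, differed in the double mutant by -1.28 ± 0.24 (SE, limma adjusted p = 0.00628). Glrx, glutaredoxin, differed by -1.34 ± 0.21 (adjusted p = 0.00209), Aqp1, the water channel of red cells, by -0.84 ± 0.12 (adjusted p = 0.000972), and Pfkp by 2.30 ± 0.38 (adjusted p = 0.00255). These 4 and Ldb1, Klf3 and Klf8 passed in each of 21 alternative fits. Klf1 differed by -0.41 ± 0.11 (adjusted p = 0.0487) and passed in 7 of the 21. Hba-x and Hbb-bh1 differed by 1.36 ± 0.38 and 1.33 ± 0.38 and missed the threshold (adjusted p = 0.0683 and 0.0698). The count and the balance of directions depended on single arrays. Without double mutant replicate 1, 1389 rows (5.93%) and 52 erythroid genes were called, 12 higher and 40 lower. Without double mutant replicate 3, 496 rows (2.12%) and 9 erythroid genes were called, 6 higher and 3 lower. Without wild-type replicate 1 the counts were 472 rows (2.02%) and 9 erythroid genes, 5 higher and 4 lower. They were 403 (1.72%) and 7 (4 higher, 3 lower) without replicate 2, and 382 (1.63%) and 8 (4 higher, 4 lower) without replicate 3. With male arrays alone 744 rows (3.18%) and 9 erythroid genes were called, 5 higher and 4 lower, so the excess of lower calls was not seen in those 5 fits. Over all rows too, higher calls outnumbered lower ones in each of those fits. They were 300 (1.28%) against 196 (0.837%) without double mutant replicate 3, and 248 (1.06%) against 224 (0.957%) without wild-type replicate 1. Without wild-type replicate 2 they were 229 (0.978%) against 174 (0.743%), and 227 (0.970%) against 155 (0.662%) without wild-type replicate 3. The loss of that excess was thus not particular to the erythroid genes. Klf3 and Klf8 passed in each of those fits and are counted as higher, so these balances do not describe the other erythroid genes alone. With Klf3 and Klf8 set aside, lower calls outnumbered higher ones by few genes without wild-type replicate 1, 2 or 3 and with male arrays alone. That did not hold without double mutant replicate 3. With a replicate block the counts were 986 rows (4.21%) and 28 erythroid genes, 8 higher and 20 lower. Without both Klf8-trap replicate 1 and double mutant replicate 1 they were 2260 rows (9.65%) and 70 erythroid genes, 13 higher and 57 lower.

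Of 19 macrophage genes, 9 were called lower in the double mutant and 0 higher, with a median difference of -1.09 over the 19, against 1.78% of all rows called lower and a median of -0.02. Cd5l, a secreted protein of macrophages, differed by -2.54 ± 0.33 (SE, limma adjusted p = 0.000338) and Marco by -1.54 ± 0.26 (adjusted p = 0.00324), and both passed in each of 21 alternative fits. The macrophage count, in each case of lower calls, was 5 without double mutant replicate 3 (0.837% of all rows lower), 5 without wild-type replicate 2 (0.743%) and 3 without wild-type replicate 3 (0.662%). It was 15 without double mutant replicate 4 (2.76%) and 14 with male arrays alone (1.40%). Of 14 endothelial, 21 hepatocyte and 10 megakaryocyte genes, 0 were called in any of the 3 limma comparisons. At an unadjusted p under 0.05 the Klf8-trap comparison gave 17 hepatocyte genes and 1 megakaryocyte gene, against 13.4% of all rows. The double mutant gave 2 hepatocyte and 2 endothelial genes against 17.9% of all rows, shares that lie below this background. Without Klf8-trap replicate 1, 8 hepatocyte and 5 megakaryocyte genes were called higher in the Klf8-trap arrays, against 4.61% of all rows called higher. Without double mutant replicate 1 as well the numbers were 17 and 8, against 8.47%. With male arrays alone, 0 hepatocyte and 6 megakaryocyte genes were called higher there, against 1.11%. In the double mutant, 8 hepatocyte genes were called higher without both arrays, against 5.10% of all rows. In that comparison 1 endothelial gene was called higher without both arrays, against the same 5.10%. It was also 1 without Klf8-trap replicate 1 alone (2.02% of all rows higher) and without wild-type replicate 4 (1.56%). Without double mutant replicate 1 alone, 1 hepatocyte gene was called higher in the double mutant, against 2.58% of all rows. The wild-type arrays were all male and each mutant group held both sexes. With male arrays alone the 3 comparisons called 318 (1.36%), 40 and 744 rows.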

How the data were processed

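RNA of TER119-positive E13.5 fetal liver cells was labelled with the Affymetrix IVT Express kit, per the labels' protocols. The deposited values are log2 signals, 1 per row and array. The submitters' processing notes name RMA and Partek without a version, and the labels state no genome build for the probes. Symbols came from the platform annotation, and 21698 gene identifiers matched RefSeq GRCm38.p6, which changed 0 symbols.

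The log2 values were used as deposited. Genes came from rows with 1 symbol; the row of highest wild-type mean stood for a gene. Named are the 30 genes of highest mean, the 30 of largest SD among genes above the reference, list members, and list members past the threshold. In all, 5 predicted genes, clones, small RNA or ribosomal RNA genes were skipped. Of 506 listed genes 473 had a row of their own. The members and lists were chosen with earlier results of these data known, so no list is independent evidence. Differences between genotypes were tested with limma 3.58.1 in R 4.3.3 on 15 arrays with 1 mean per genotype (eBayes without trend, two-sided, Benjamini-Hochberg over 23410 rows, threshold 0.05). On data simulated for the double mutant comparison it recovered 95 of 100 rows changed by 1 and 100 of 100 changed by 2 on the log2 scale, with 12 false calls. The simulated noise was normal and independent between rows, so no simulated array stood apart across many genes. These rates therefore need not hold for the real arrays. Motifs were searched as exact letters. The number of arrays limits the precision. Alternatives were a replicate block, each array left out, quantile normalization again, a trend, a filter on low signal, male arrays only, other references and other rows per gene. Leaving out both double mutant replicate 1 and Klf8-trap replicate 1 was chosen after seeing the data.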

Additional observations from a re-analysis of the deposited data

Results flagged for a closer look

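In 4 of 36 list means and 11 of 178 named genes, 1 wild-type array stood apart from the other 3 by Dixon's ratio. Of the 178, 30 had been chosen for a large SD over the same arrays, and their 4 (Arhgap6, Gdpd1, Tubb1 and Rtp4) are a description only. Among the other 148 genes it was 7 (4.73%), against 6.78% of all genes above the reference, and chance flags about 1 in 20 groups. The glycolysis list mean was 11.07 in replicate 1, against 10.87 to 10.88 in the others. The megakaryocyte mean was 9.28 in replicate 3, against 9.52 to 9.53. In replicate 4 the pancreas mean was 5.94 (5.86 to 5.87 in the others) and the bone and cartilage mean 5.57 (5.51 to 5.52).

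Among genes, replicate 4 stood apart for Gdpd1 (8.97, against 6.78 to 6.98), Kit (7.65, against 7.26 to 7.31), Urod (12.95, against 13.17 to 13.21), Ccnd2 (9.98, against 9.62 to 9.67) and Reln (10.79, against 10.32 to 10.38). Replicate 2 stood apart for Arhgap6 (8.11, against 5.82 to 6.19), Tubb1 (10.58, against 12.25 to 12.40) and Mbp (7.38, against 7.45 to 7.46). Cd163 is listed at 4.36 in all 4 arrays, and its flag there rests on differences beyond the second decimal. Replicate 3 stood apart for Rtp4 (6.14, against 7.17 to 7.30) and replicate 1 for Postn (7.56, against 8.36 to 8.51).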

How the results depend on the processing

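The number of genes above the receptor reference, 12782, stayed between 9408 and 13394 under the other references, a new normalization and the loss of any 1 wild-type array. The number of genes with an SD over 0.5 was 36 to 53 under other scalings or without a filter on low signal, and 19 to 55 on leaving out 1 wild-type array, the lowest without replicate 4. Leaving out any 1 of the 15 arrays gave 0 to 1683 called rows for Klf8 trap, 61 to 180 for Klf3-null and 382 to 1389 for the double mutant, all against wild type. With male arrays alone the first count was 318 and the second 40. Without both the Klf8-trap and the double mutant replicate 1, a choice made after seeing the data, the counts were 2917, 296 and 2260. With a replicate block they were 0, 133 and 986. Same-numbered mutant and wild-type arrays deviated together with mean correlations of -0.045, 0.005 and -0.031, too low to pair mutant with wild-type arrays by number. The mutant groups were not correlated with each other, so a replicate effect shared by them was not tested. Replicate 1 was lowest in both Klf8-trap and double mutant arrays for hepatocyte (11.04 and 10.05), endothelial (7.65 and 7.77) and megakaryocyte (8.90 and 8.98) list means. In wild type it was lowest for none of these lists, and in Klf3-null for the endothelial list alone (7.95). The embryonic globin mean was lowest in replicate 1 in 3 of 4 groups, and the labels do not say what a number stands for. Another normalization, a trend or a filter on low signal left each count within 1.5 times its reported value. Averaging the rows of a gene moved 5 of 11 erythroid list means, by more than their SD between arrays: growth factor signalling from 8.95 to 8.89, membrane from 11.71 to 11.59, oxidant defence from 11.93 to 11.82, glycolysis from 10.92 to 10.78 and cell cycle from 11.03 to 10.91. The cause of the changes was not tested. No detection call or depth accompanies the values, and rows near the top of the scale may be compressed.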

Other observations

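Classes of genes outside the lists differed in how many members gave signal in wild type. Proteasome subunits were above the reference for 49 of 50 genes with a median of 10.59, and subunits of the respiratory chain and ATP synthase for 88 of 90 with a median of 10.28 and a highest value of 13.36. The 2 mitochondrially encoded genes with a row of their own, which include COX2 of cytochrome oxidase (13.80, 13.90, 13.87 and 13.90), were among the 100 brightest. Of 46 histone genes with a row of their own, 40 were above the reference and 3 were among the 100 brightest.

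Of 300 microRNA genes, 91 were (30.3%), with a median of 5.06, and of 54 small nucleolar RNA genes, 47 were (87%), with a median of 7.53. Keratin-associated and defensin genes were above it in 17 of 86 cases (19.8%), and predicted genes or clones in 496 of 1334 (37.2%).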
